A study of Homo sapiens with 6 samples.

Results

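The NRF2 antioxidant targets are genes switched on by the transcription factor NRF2, which is encoded by NFE2L2. A list of 9 of them was examined in U87 cells, a human glioblastoma line, 96 h after lentiviral infection: TXNRD1, SRXN1, HMOX1, NQO1, SLC7A11, GCLM, GCLC, FTL and FTH1. Members were read through the probesets that the platform's table names, of which the one with the highest mean stood for a gene, and NQO1 through its probeset in the study's own probeset table. This gave 4 of the 9 genes (TXNRD1, SRXN1, HMOX1 and NQO1), against 14884 genes named by the platform's table in all. SLC7A11 is outside that rule, but the study's table names a probeset for it as it does for NQO1, so its values are described and kept out of the counts of members. The part of that table at hand is sorted by rise, so a gene with a fall would not be listed in it. GCLM, GCLC, FTL and FTH1 were not analysed here.

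Expression was compared between ZNF768 knockdown cells (3 arrays), which were transduced with a lentivirus against the transcription factor ZNF768 and selected with puromycin, and control cells (3 arrays) of the same line. The arrays are labelled as biological replicates, and the labels name neither the hairpin nor the control vector. Values are log2 expression by Robust Multichip Average (RMA), a summary of the probes of a probeset after background correction and normalization between arrays. They measure mRNA in 1 cell line with depletion of 1 gene, and they hold no measure of NRF2 protein, enzyme activity or oxidants.

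In unstressed cells NRF2 is bound by KEAP1, an adaptor that delivers it to a CUL3 ubiquitin ligase for degradation. Oxidants and electrophiles modify KEAP1, after which NRF2 builds up, pairs with a small MAF protein and binds antioxidant response elements near its targets. The targets supply thiols and NADPH-driven reduction, detoxify quinones, degrade heme and store iron. In gliomas and other tumors the pathway is known for its part in resistance to oxidative stress and therapy.

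The antioxidant response element was searched as TGACNNNGC on both strands in RefSeq promoter windows (GRCh38.p14), which run from 250 bases before to 50 bases after a start site. It was the only motif searched, and its matches do not overlap each other in the windows printed. Of the 9 listed genes, 6 had a window, and a match was found for TXNRD1 and GCLM. The windows of NFE2L2, KEAP1 and ZNF768 were searched as well, and those of KEAP1 and ZNF768 held a match, while other regulators were not searched. Of all 35116 windows, 13.3% held a match. The stretches below are those of TXNRD1 and KEAP1, the measured target and the NRF2 repressor with matches, and capitals mark the matches.
TXNRD1, first start site, chr12:104215650-104215779, plus strand: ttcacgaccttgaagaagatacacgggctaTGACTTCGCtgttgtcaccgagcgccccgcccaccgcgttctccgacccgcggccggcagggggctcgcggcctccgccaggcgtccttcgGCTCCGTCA
TXNRD1, second start site, chr12:104286900-104286968, plus strand: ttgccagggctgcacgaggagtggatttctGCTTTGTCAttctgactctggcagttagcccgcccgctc
KEAP1, second start site, chr19:10502772-10502855, minus strand: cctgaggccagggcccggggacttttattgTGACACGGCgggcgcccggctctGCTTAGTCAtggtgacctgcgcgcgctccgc
The matches begin 99 and 8 bases before the first start site of TXNRD1, 102 bases before its other start site, and 54 and 31 bases before the KEAP1 start site. The windows of NQO1 and SRXN1 held no match, which says only that these letters are not in these windows. A match is a description of the sequence and not a measured binding site.

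ZNF768 mRNA was lower in the knockdown arrays, as the labels state. It read 7.02, 7.14 and 7.31 in ZNF768 knockdown cells, against 8.49, 8.54 and 8.54 in control cells on the log2 scale. The fall was 1.36 on the log2 scale (SE 0.0851, limma adjusted p = 0.00015). This left 0.388 of the control level. Here and below, the groups were compared by a limma fit of 53617 probesets, p-values were adjusted over all of them by the Benjamini-Hochberg method, and a gene rose or fell when the adjusted p was under 0.05. Array medians lay between 6.40 and 6.44, and Pearson correlations across probesets were 0.994 between knockdown arrays and 0.992 to 0.994 between control arrays, and 0.977 to 0.980 across the groups. These are correlations over probesets, which do not count as replicates. Among all genes 2466 rose and 2501 fell. When arrays were centred on housekeeping genes, 3257 rose and 2137 fell, so that 60.4% of the calls were rises in place of 49.6%. Of the 6 measured housekeeping genes 2 fell themselves and none rose, with a median log2 fold change of -0.06. Centring on them therefore moves the changes of all genes up.

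All 4 measured members of the list rose in ZNF768 knockdown cells, to between 1.37 and 1.90 times their control level. SLC7A11 rose to 3.04 times its control level. The list does not hold every target of NRF2, so the count covers its members only. Of all genes named by the platform, 16.6% rose. NQO1 and SLC7A11 are named only by the study's table, of which the part at hand is sorted by rise. The members were chosen with earlier results of these data known, so their count is a description. Without NQO1, 3 of 3 measured members rose. In each of these genes the 3 knockdown arrays lay above the 3 control arrays, as they did in 28.0% of all genes. In bulk RNA, a change in how many cells express a gene and in the RNA per cell cannot be told apart. The median log2 fold change was 0.75 over the 4 members, 0.73 over the 3 without NQO1 and 0.04 over all genes.

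TXNRD1 encodes the cytosolic thioredoxin reductase, a selenoprotein that uses NADPH to keep thioredoxin reduced. Its probeset, 16756163, read 9.85, 9.73 and 9.74 in ZNF768 knockdown cells, against 8.85, 8.69 and 8.99 in control cells on the log2 scale. The groups did not overlap, and the control arrays were spread more widely (SD 0.15, n = 3) than the knockdown arrays (SD 0.06, n = 3). The log2 fold change was 0.93 (SE 0.0895, limma adjusted p = 0.000732), or 1.90 times the control level with a 95% interval of 1.64 to 2.21. Among all genes 220 had a larger rise.

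SRXN1 encodes sulfiredoxin, which reactivates peroxiredoxins that have been oxidized too far to be rescued by thioredoxin. Its probeset, 16916352, read 9.98, 10.00 and 9.96 in ZNF768 knockdown cells, against 9.55, 9.58 and 9.45 in control cells on the log2 scale. Each knockdown array was above each control array, and the knockdown arrays lay close together. SRXN1 had the smallest change of the 4 members, with a log2 fold change of 0.46 (SE 0.0595, limma adjusted p = 0.00247), or 1.37 times the control level with a 95% interval of 1.24 to 1.51. A larger rise was seen in 1342 genes.

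HMOX1 encodes the inducible heme oxygenase, which opens heme into biliverdin, carbon monoxide and iron. Its probeset, 16929562, read 12.20, 12.19 and 12.12 in ZNF768 knockdown cells, against 11.47, 11.49 and 11.36 in control cells on the log2 scale. Replicate 3 was the lowest array of either group, and the groups stayed apart. The log2 fold change was 0.73 (SE 0.0631, limma adjusted p = 0.000476), or 1.66 times the control level with a 95% interval of 1.49 to 1.85.

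NQO1 encodes a quinone reductase that carries quinones straight to hydroquinones, past the reactive semiquinone. Its probeset, 16827679, read 12.73, 12.70 and 12.68 in ZNF768 knockdown cells, against 11.98, 11.91 and 11.89 in control cells on the log2 scale. The groups did not overlap. NQO1 had a log2 fold change of 0.78 (SE 0.0555, limma adjusted p = 0.00025), or 1.71 times the control level with a 95% interval of 1.56 to 1.88. Larger rises were seen in 403 genes, and 478 genes exceeded that of HMOX1. NQO1 was named through the part of the study's table that is sorted by rise, so its rank is a description.

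SLC7A11 encodes the light chain of the cystine/glutamate antiporter, which imports cystine for glutathione synthesis and is a known target of both NRF2 and the stress transcription factor ATF4. Its probeset, 16979917, read 11.09, 11.08 and 11.02 in ZNF768 knockdown cells, against 9.48, 9.46 and 9.45 in control cells on the log2 scale. The gap between the groups was far wider than the spread within either. The log2 fold change was 1.60 (SE 0.0528, limma adjusted p = 1.74e-05), or 3.04 times the control level with a 95% interval of 2.78 to 3.32. Of the 14884 genes named by the platform, which do not include SLC7A11, 21 had a larger rise. SLC7A11 was named through the part of the study's table that is sorted by rise. A gene with a fall would not be listed there, so this rank is a description.

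**Figure D1:**
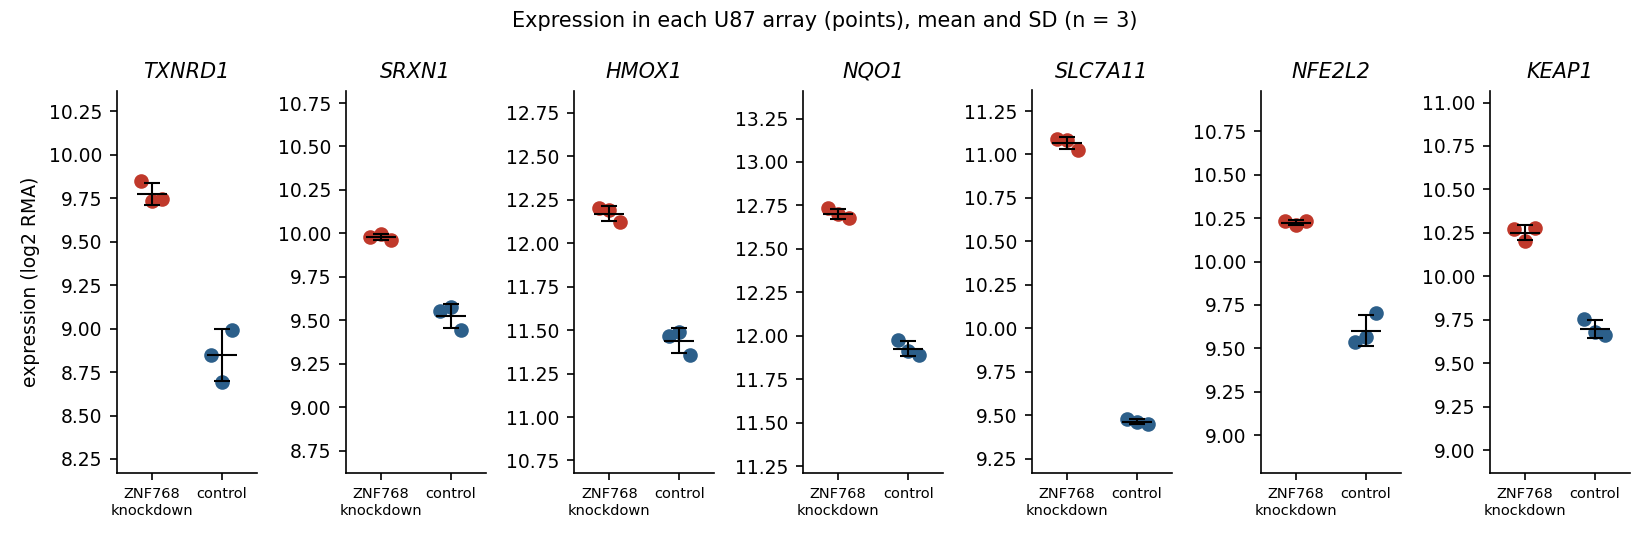
Log2 RMA expression of 5 NRF2 targets and of NFE2L2 and KEAP1 in each array, with ZNF768 knockdown cells in red and control cells in blue; points are arrays, and the bar gives the mean and SD (n = 3). All panels span the same range of log2 units, the knockdown arrays lie above the control arrays in every panel, and the gap is widest for SLC7A11 (means of 11.06 in knockdown cells and 9.46 in control cells).

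The size of the rise was compared between these 5 genes through the difference of their log2 values within each array, over 10 pairs. With 3 arrays against 3, the exact permutation test cannot go below p = 0.1. In 7 of 10 pairs the differences did not overlap between the groups, each with this smallest p (two-sided, exact permutation test, adjusted p = 0.143). These were the 4 pairs with SLC7A11, whose log2 fold change was larger by 0.67 than that of TXNRD1 and by 1.15 than that of SRXN1, and the 3 pairs of SRXN1 with the other members. The log2 fold change of SRXN1 was smaller than those of the other 3 members, with a difference of 0.28 (SE 0.019) for HMOX1 minus SRXN1, 0.32 (SE 0.0368) for NQO1 minus SRXN1 and 0.47 (SE 0.131) for TXNRD1 minus SRXN1. These gaps are larger than their SE, which is not a test. The exact permutation test cannot pass 0.05 with this number of arrays, so the places of SLC7A11 and SRXN1 are given as a description. NQO1 and SLC7A11 were named through a table part sorted by rise, so a gene with a fall could not have entered these pairs by that route. Among TXNRD1, HMOX1 and NQO1 the changes overlapped, with differences of 0.04 to 0.20 on the log2 scale and exact permutation p of 0.3 to 0.4, so their order is not resolved by these arrays.

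**Figure D2:**
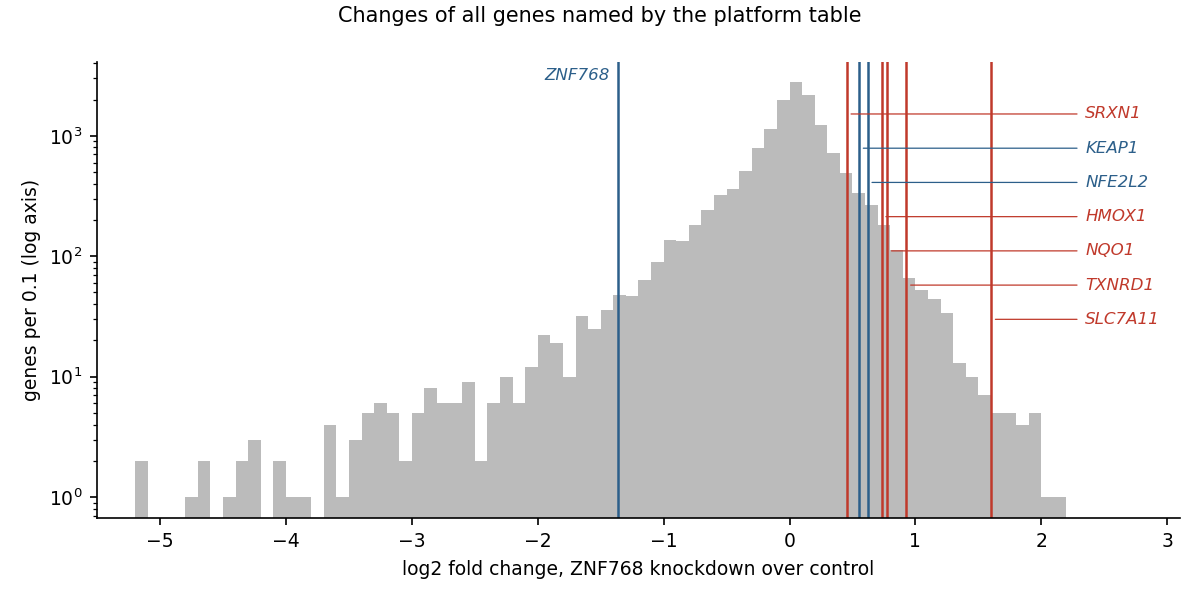
Histogram of the log2 fold change of ZNF768 knockdown over control cells for the 14884 genes named by the platform's table, in bins of 0.1 and with a log axis of counts; vertical lines mark the NRF2 targets in red and NFE2L2, KEAP1 and ZNF768 in blue. The targets lie on the right of the distribution, from 0.46 for SRXN1 to 1.60 for SLC7A11. NQO1 and SLC7A11 are not among the genes of the histogram and were named through a table part sorted by rise.

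The mRNA of NRF2 itself and of its repressor rose as well. NFE2L2 read 10.23, 10.21 and 10.23 in ZNF768 knockdown cells, against 9.54, 9.57 and 9.70 in control cells on the log2 scale. It was 1.54 times its control level (95% interval 1.38 to 1.71, limma adjusted p = 0.000956). KEAP1 read 10.27, 10.20 and 10.28 in ZNF768 knockdown cells, against 9.76, 9.68 and 9.66 in control cells on the log2 scale. It was 1.47 times its control level (95% interval 1.33 to 1.62, limma adjusted p = 0.00104). For both genes the groups did not overlap.

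Of 13 listed regulators of NRF2, 9 were measured. In this list 4 rose, 1 fell and 4 gave no call, while 16.6% of all genes rose and 16.8% fell. Besides NFE2L2 and KEAP1, the regulators that rose were MAFG, a small MAF partner of NRF2, with a log2 fold change of 0.52, and SQSTM1, the autophagy receptor p62 that binds KEAP1, with 0.37. BTRC, an F-box protein of a ubiquitin ligase that can target NRF2, fell by 0.56 on the log2 scale (SE 0.0796, limma adjusted p = 0.00352). CUL3, the scaffold of the ligase that KEAP1 serves, differed by -0.10 on the log2 scale (limma adjusted p = 0.386), and NFE2L1, a relative of NRF2, by -0.17 (limma adjusted p = 0.0835). MAFG, SQSTM1, CUL3 and NFE2L1 were singled out once their values were known.

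The other genes of the pathway and of neighbouring lists did not share one direction. Of 108 genes in 8 further lists (including the regulators), 71 were measured. Among them 20 rose, 11 fell and 40 gave no call, or 28.2% and 15.5% of them. Their median log2 fold change was 0.11, against 0.04 over all genes. The 8 lists include the targets of ATF4, which is not a factor of the NRF2 pathway. Of its 11 measured genes 6 rose (54.5%) and 3 fell (27.3%), which raises both pooled shares. The 8 lists were written with earlier results of these arrays known.

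In the glutathione list, 2 of 10 measured genes rose (20.0%) and 1 fell (10.0%), near the shares of all genes (16.6% and 16.8%). GPX4, the peroxidase that removes lipid hydroperoxides from membranes, read 11.88, 11.74 and 11.73 in ZNF768 knockdown cells, against 11.04, 11.10 and 11.03 in control cells, with a log2 fold change of 0.73 (SE 0.0655, limma adjusted p = 0.000564). GSR, which regenerates reduced glutathione, was 1.36 times its control level. CTH, which makes cysteine by transsulfuration, was lower, at 0.647 of its control level (limma adjusted p = 0.0028).

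In the list of thioredoxin and peroxiredoxin genes, 3 of 15 rose (20.0%, near the 16.6% of all genes) and 1 fell (6.7%, against 16.8%), and the targets TXNRD1 and SRXN1 are not counted in it. SESN1, a sestrin and known p53 target, had a log2 fold change of 0.57 and MSRB1, a methionine sulfoxide reductase, had 0.39. The call of MSRB1 was lost when knockdown replicate 1 or 3 or control replicate 1 or 3 was left out, with adjusted p of 0.0612 to 0.0731. The substrates of the 2 targets gave no call. TXN, the thioredoxin that TXNRD1 reduces, had a log2 fold change of 0.08 (95% interval -0.09 to 0.26), and PRDX1, a peroxiredoxin that SRXN1 repairs, one of -0.02 (95% interval -0.16 to 0.13), and both were singled out once their values were known. Of the relatives of TXNRD1, the mitochondrial TXNRD2 had a log2 fold change of 0.23 (limma adjusted p = 0.0578) and TXNRD3 fell by 0.41 on the log2 scale (limma adjusted p = 0.00446).

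In the list for NADPH supply, 6 of 9 genes were measured. Among these 1 rose and 1 fell (16.7% each), shares near those of all genes (16.6% and 16.8%). The measured genes are of both branches of the pentose phosphate pathway, so their mRNA is not a measure of NADPH. PGLS, an enzyme of the oxidative pentose phosphate pathway, was 1.38 times its control level, and RPIA, of the non-oxidative branch, fell by 0.79 on the log2 scale. NQO2 and SLC7A5, the relatives of NQO1 and SLC7A11, were not analysed here.

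Genes of iron and heme moved in both directions, with 2 of 8 higher (25.0%, against 16.6% of all genes) and 3 lower (37.5%, against 16.8% of all genes). HMOX2, the constitutive heme oxygenase, read 8.80, 8.55 and 8.80 in ZNF768 knockdown cells, against 8.09, 8.07 and 7.93 in control cells on the log2 scale. It was 1.61 times its control level (limma adjusted p = 0.00271), so both heme oxygenases rose. Of the biliverdin reductases, which act after heme oxygenase, BLVRB had a log2 fold change of 0.69 and BLVRA fell by 0.85. NCOA4, the receptor that delivers ferritin to the lysosome to release its iron, had the largest fall of this list. It read 10.40, 10.40 and 10.36 in ZNF768 knockdown cells, against 11.37, 11.34 and 11.32 in control cells on the log2 scale, and fell by 0.96 (SE 0.0521, limma adjusted p = 9.34e-05). All named genes of this paragraph had groups without overlap, as did 51.5% of all genes in either direction.

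Of 11 measured genes for quinones, carbonyls and conjugation, 2 rose (18.2%, near the 16.6% of all genes) and 1 fell (9.1%, against 16.8%). The rises of CBR3, a carbonyl reductase (log2 fold change 0.38), and OSGIN1, an oxidative stress-induced growth inhibitor (log2 fold change 0.37), were small. The call of CBR3 was lost when any array other than control replicate 1 was left out, with adjusted p of 0.0607 to 0.116. That of OSGIN1 was lost without any single knockdown array, with adjusted p of 0.0548 to 0.0913. UGDH, which makes the sugar donor of glucuronidation, fell by 0.48 on the log2 scale. CAT and PON2, the measured genes of the list for superoxide and peroxide removal, did not pass the test.

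Since SLC7A11 is also a target of ATF4, the targets of that factor were counted beside it. Of 11 measured genes, ATF4 included, 6 rose (54.5%, against 16.6% of all genes) and 3 fell (27.3%, against 16.8% of all genes). DDIT3, the stress transcription factor CHOP, was 2.04 times its control level and ATF3, a stress-induced transcription factor, was 1.84 times. The largest falls were those of DDIT4, an inhibitor of mTORC1, by 1.28 on the log2 scale, and PHGDH, the first enzyme of serine synthesis, by 0.81. The part of either factor in the level of SLC7A11 was not tested.

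**Figure D3:**
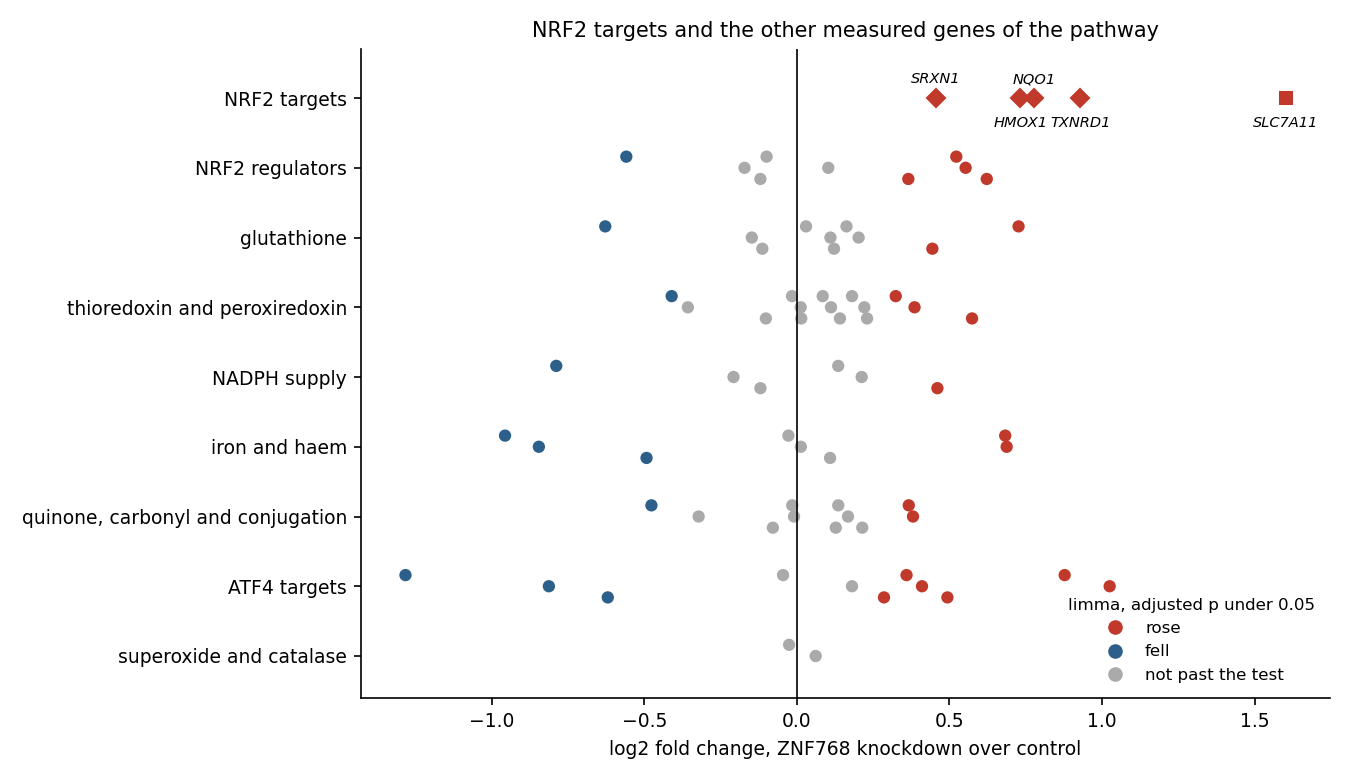
Log2 fold change of ZNF768 knockdown over control cells for each measured gene, by list, with the ATF4 targets beside the lists of the pathway. Genes that rose are in red, genes that fell in blue and genes that did not pass the limma test in grey. SLC7A11, read outside the rule for members, is a square. The 5 targets lie between 0.46 and 1.60, while the other lists, apart from CAT and PON2, hold genes on both sides of 0 that passed the test. NQO1 and SLC7A11 were named through a table part sorted by rise, and the other lists through the platform's table alone. The contrast is therefore partly set by how the genes were named.

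By Pearson correlation over the 6 arrays with the mean of the 4 members, each centred on its own mean, the most alike of 14881 other genes were PLXNB2 (r = 0.9996), DLGAP1-AS1, RITA1, GDF5 and ATPAF1 (each with r of at least 0.999), with log2 fold changes of 0.70 to 1.48. With the mean of a gene's probesets the log2 fold change was 0.67 for RITA1 and 1.02 for GDF5. That of GDF5 stayed at 1.475 whichever control array was left out, so its control arrays did not differ. The 6 arrays share 2 levels, knockdown and control, so that 1574 genes had r above 0.95, and the likeness is given as a description.

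Markers of cell type moved in the same arrays. VIM and CD44, markers of mesenchymal glioma cells, fell by 0.71 and 0.70 on the log2 scale, from probesets at mean percentiles of 97.2 and 95.1. VIM has several probesets, and with their mean its log2 fold change was -0.94. CHI3L1 and TNC of the same list, at percentiles of 99.2 and 99.4, had log2 fold changes of -0.11 (limma adjusted p = 0.42) and -0.01 (limma adjusted p = 0.9). The astroglial genes GFAP, S100B and SOX2 lay at lower percentiles of 60.1, 38.8 and 41.7 and did not pass the test. Whether their signal lies above background is not known. Of 10 measured glial and glioma markers 3 fell, while 16.8% of all genes did, and none rose. Their summed unlogged level was 16960 to 17115 in knockdown arrays and 19502 to 20463 in control arrays. This sum is made up mostly of TNC, CHI3L1, VIM and CD44, so it says little of the markers with lower levels. Of 6 measured myeloid markers 2 fell (33.3%). These were CD68, also a lysosomal protein, with a log2 fold change of -3.11, and CSF1R, a macrophage and microglia marker. CSF1R had a log2 fold change of -0.50 (limma adjusted p = 0.0451) and lay at a percentile of 71.3. The other 4 did not pass the test and lay at percentiles of 25.9 to 63.0, with CD163 at 25.9 and CX3CR1 at 41.7. The summed level of the 6 myeloid markers was 1219 to 1330 in knockdown arrays and 7203 to 7386 in control arrays. Without CD68 it was 450.6 to 531.3 in knockdown arrays and 522.4 to 559.7 in control arrays. The part of these markers in the rise of the NRF2 targets was not tested.

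The direction and the call of each NRF2 target were kept under all 15 alternatives examined, which include each array left out in turn. Each target has 1 probeset, so changes of the probesets fitted, the variance model, the block or the threshold leave its log2 fold change as it was. As the groups did not overlap, leaving out an array could not turn the direction. TXNRD1 ranged from 0.85 to 1.00, SRXN1 from 0.42 to 0.52, HMOX1 from 0.69 to 0.80, NQO1 from 0.75 to 0.84 and SLC7A11 from 1.58 to 1.67 on the log2 scale. The largest adjusted p among them was 0.0163, for SRXN1.

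**Figure D4:**
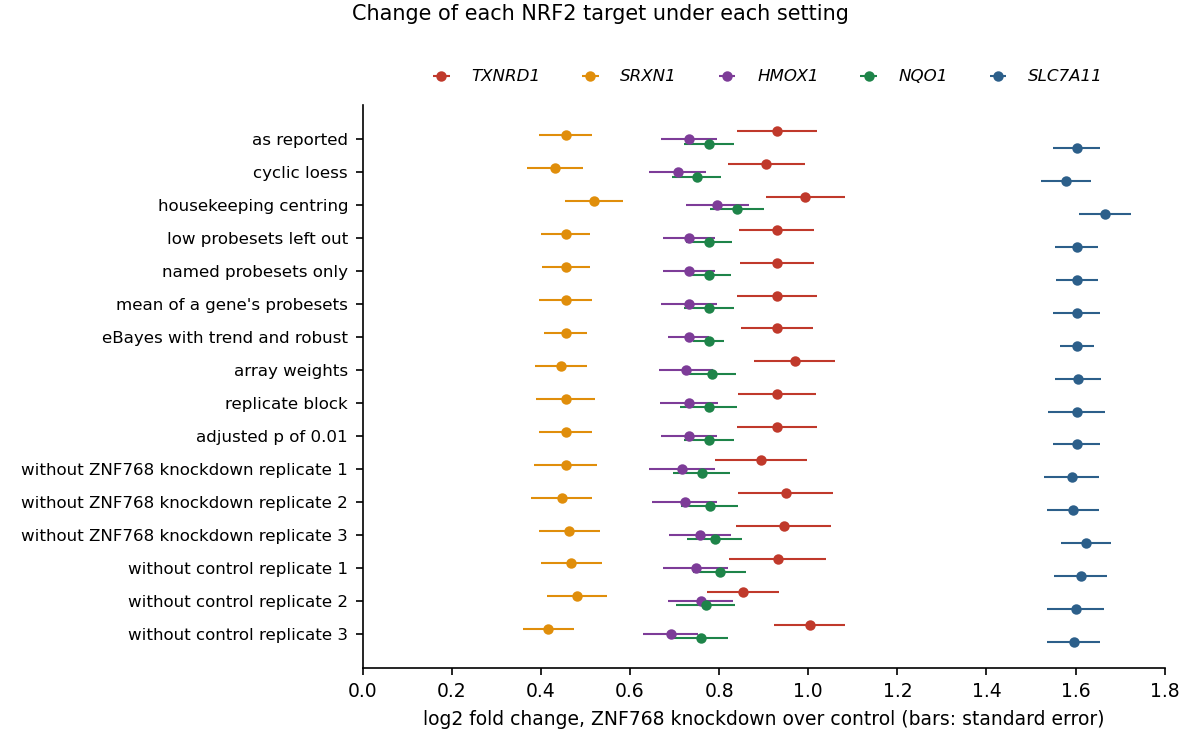
Log2 fold change of ZNF768 knockdown over control cells for each NRF2 target under each processing setting, with its SE; each row is a setting, and the first is the one reported in the text. No value crosses 0, and SLC7A11 lies above and SRXN1 below the other targets in every row.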

How the data were processed

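RNA of ZNF768 knockdown (3 arrays) and control (3 arrays) U87 cells was measured on GeneChip Human Gene 2.0 ST arrays of Affymetrix. The deposited values are log2 expression per probeset, which the authors extracted by RMA in the oligo package (versions not given in the sources used here), with no filter stated. Gene names came from the table of the platform, updated by Entrez identifier (16098 of 53617 named, 37519 unnamed here). The test was limma 3.58.1 under R 4.3.3 (lmFit, then eBayes at its defaults), without covariates, and p-values of all probesets were adjusted together by Benjamini-Hochberg. The number of arrays limits the precision.

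Named were all measured members, ZNF768, NFE2L2, KEAP1, measured paralogs of members, up to 2 rises and 2 falls per list and the 5 genes most alike. Outside this rule, 18 genes (further regulators, TXN, PRDX1, CAT, PON2 and cell type markers) were named once their values were known. CSF1R was named as well, and it is not among the genes followed under the alternatives. The members and lists were chosen with earlier results of these data known. Lists are described by counts beside all genes. The study's probeset table also holds fold changes, which were not used. The fit was tested on simulated data.

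Alternatives were cyclic loess, centring on housekeeping genes, omission of probesets under the median level, fitting named probesets only, the mean of a gene's probesets, trend and robust eBayes, array weights, the replicate number as a block, each array left out and an adjusted p of 0.01. Counting members without NQO1 or with SLC7A11 was added after the data were seen.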

Additional observations from a re-analysis of the deposited data

How the results depend on the processing

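The count of 4 members that rose and 0 that fell was the same under all 15 alternatives. Several of these cannot change the log2 fold change of a member with 1 probeset. The median log2 fold change of the members ranged from 0.72 to 0.82. Counting SLC7A11 with the members gave 5 rises and a median of 0.78, and leaving out NQO1 gave 3 rises and a median of 0.73. ZNF768 kept its call, with log2 fold changes from -1.44 to -1.29. At an adjusted p of 0.01 from limma, 1506 genes rose. With an array left out, 1873 to 2113 genes rose and 1998 to 2271 fell, and of the other pathway genes 15 to 18 rose and 11 to 14 fell.

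Same-numbered arrays of the groups did not deviate together (correlations of -0.07 to 0.02). This does not settle whether a shared number marks a shared culture. The paper states that the groups of each cell culture experiment were set up from the same plate of cells. With the replicate block 1865 genes rose and 2029 fell, 4 members rose, and the calls of MSRB1, CBR3 and OSGIN1 were lost (adjusted p = 0.0719, 0.106 and 0.0734 from limma). TXNRD2 passed the test under 5 alternatives, among them housekeeping centring (log2 fold change 0.29, adjusted p = 0.019). Over the 28 genes named by the rule besides the targets and ZNF768, 396 of 420 comparisons kept direction and call, 19 lost the call, 5 gained it and none turned its direction. Over 18 genes named outside the rule, 254 of 266 did, NFE2L1 gained a call under 3 alternatives, and 9 values of genes without a call turned sign. Under housekeeping centring these were PRDX1 (0.0477), PON2 (0.0382), TNC (0.0492), S100B (0.0526) and CD163 (0.0491), as log2 fold changes. With an array left out, PRDX1 ranged from -0.0475 to 0.0072 and TNC from -0.051 to 0.0281. The median change over all genes was 0.01 after cyclic loess and 0.11 after housekeeping centring. No scanner values were analysed, so signal over background and saturation of single probesets are unknown.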
